A study of Mus musculus with 18 samples.

Results

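Hearts of Kir6.1-deficient mice, called mutant by the labels, were compared with control hearts 3 h after an injection of PBS, the vehicle of the experiment. The comparison takes 6 of the 18 arrays of the study, 3 mutant and 3 control, chosen by their labels alone. The study also gave 0.5 ug of LPS, bacterial lipopolysaccharide, in PBS to mice of both genotypes and took hearts after 30 min or 3 h. Per the series design, each genotype had 3 mice per condition. Total RNA of each heart was extracted with Trizol, amplified, labelled with biotin and hybridized to Affymetrix mouse genome arrays, whose features are probe sets, groups of short probes against one transcript. Strain, allele, age and sex were not given in the sources used here. Nothing in the labels says beyond the design text that the arrays come from separate animals, so p-values measure the spread between these 6 arrays, which may in part be technical.

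ATP-sensitive potassium (K-ATP) channels couple the energy state of a cell to its membrane potential. They open when ATP falls, potassium leaves and the cell hyperpolarizes. Each channel joins a pore, Kir6.1 or Kir6.2, to sulfonylurea receptors, SUR1 or SUR2. Kir6.1, encoded by Kcnj8, serves with SUR2 in vascular smooth muscle and pericytes, where opening of the channel relaxes the vessel, while Kir6.2 with SUR2 is the channel of ventricular cardiomyocytes. Mice without Kir6.1 are known for coronary spasm, sudden death and sensitivity to endotoxin.

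Kcnj8 itself was far lower in the mutant hearts. Its log2 values were 8.52, 8.58 and 8.70 on the control arrays and 4.72, 4.43 and 4.35 on the mutant arrays. Mutant signals sat near 4.86, the median signal of the 6 arrays, and the groups lay far apart. Such low signals are not shown to be above background, so the fold is a lower bound. The position of the probes within Kcnj8 was not analysed here, so a missing exon and a reduced transcript cannot be told apart. The difference was -4.10 on the log2 scale (SE 0.11, n = 3 and 3), an at least 17.1-fold lower signal, with an adjusted p of 8.34e-08 in limma. An exact two-sided permutation test of the 6 values gave p = 0.1, the smallest that 3 against 3 allows. The other channel subunits did not pass the threshold of an adjusted p of 0.05. Kcnj11, which encodes Kir6.2, read 8.99, 9.10 and 8.88 in controls and 8.63, 8.83 and 8.81 in mutants, a difference of -0.23 (SE 0.09, adjusted p = 0.303 in limma). Abcc9, which encodes SUR2, differed by 0.01 (SE 0.08) with overlapping groups, and Abcc8, which encodes SUR1, by -0.16 (SE 0.08). Of the 5 genes on each side of Kcnj8 in the RefSeq gene order, 5 were measured. These were Gys2, Ldhb, Abcc9, 5330439B14Rik and Cmas, and their differences ran from -0.03 to 0.05 with no gene past the threshold.

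Beyond Kcnj8, far more of the probe sets past the threshold were higher than lower in the mutant hearts after PBS. Of 45037 probe sets, 272 were higher (0.604%) and 55 lower (0.122%) at the threshold, and the mutant and control values of all 327 lay apart without overlap. An unadjusted p under 0.05 was reached by 6351 probe sets, and the median difference of all probe sets was -0.005. Over all probe sets the balance was near even, with 48.4% of differences above 0. Groups lay apart for 4754 probe sets with mutants higher and 4299 with mutants lower. Of the 327 called, 304 were among the 50% of probe sets with the highest mean signal. Represented by the probe set of highest mean, 186 of 18193 genes were higher (1.02%) and 26 lower (0.143%). Groups that did not overlap were found for 2491 genes with mutants higher (13.7%) and 1597 with mutants lower (8.78%), so the lists below are read against these shares. As deposited, the upper quartile of signal was 6.755, 6.74 and 6.791 on control arrays and 6.828, 6.815 and 6.804 on mutant arrays. Medians were 4.869, 4.886 and 4.851 against 4.834, 4.84 and 4.848. With the 6 arrays quantile normalized, which gives them all the same distribution, 94 probe sets were higher and 35 lower, 72.9% higher against 83.2% as deposited.

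The number of calls rested on few arrays. It was 34, 9 and 40 without control replicates 1, 2 and 3, and 80, 116 and 93 without mutant replicates 1, 2 and 3. Fitting all 18 arrays together left 4 calls, which were Kcnj8, Ano10, Fxyd6 and the unnamed probe set 1428301_at. The PBS differences are unchanged in that fit, and only the spread is taken from all 18 arrays. With the arrays of the same hybridization day, 9 probe sets were called. All 56 probe sets past the threshold that the naming rule picked kept their sign in each of 17 other fits. With all 18 arrays, however, only 3 of them passed. In most of these fits the sign could not change. They reuse the same group means, or leave out 1 array of groups that do not overlap. Along the first principal component, 39.3% of the variance, controls lay at -13.3, -19.6 and -16.9 and mutants at 32.4, 10.2 and 7.2, so mutant replicate 1 stood apart. All 6 arrays were hybridized on 1 day, but the controls ran on fluidics station 1 and the mutants on station 2, per the experiment files, so station and genotype cannot be told apart after PBS. Mutant replicate 3 shared the array lot of the controls, and the other mutants did not. With lot as a block, the genotype difference therefore rests on mutant replicate 3 alone against the controls. It was -4.25 for Kcnj8 and 1.46 for Cxcr4, and no calls are read from that fit. The gap between 3' and 5' control probe sets, a sign of RNA integrity, was 0.32 to 0.35 in controls and 0.44, 0.34 and 0.38 in mutants on the log2 scale, and its part in the results was not tested. Mutant replicates 1 and 3 taken 3 h after LPS were hybridized on another day, with gaps of 1.37 and 1.09. They enter only the fit of all 18 arrays.

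The arrays carried the label's tissue. All 10 cardiomyocyte genes were bright, with group means from 11.41 to 14.27, whereas lung epithelium genes stayed between 3.76 and 6.08. Cardiomyocyte genes did not separate the genotypes: none of the 10 passed, and their differences ran from -0.06 for Pln to 0.04 for Myl3. In bulk tissue, fewer cells of a type and less RNA per cell cannot be told apart, which holds for each cell type list described here.

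**Figure D1:**
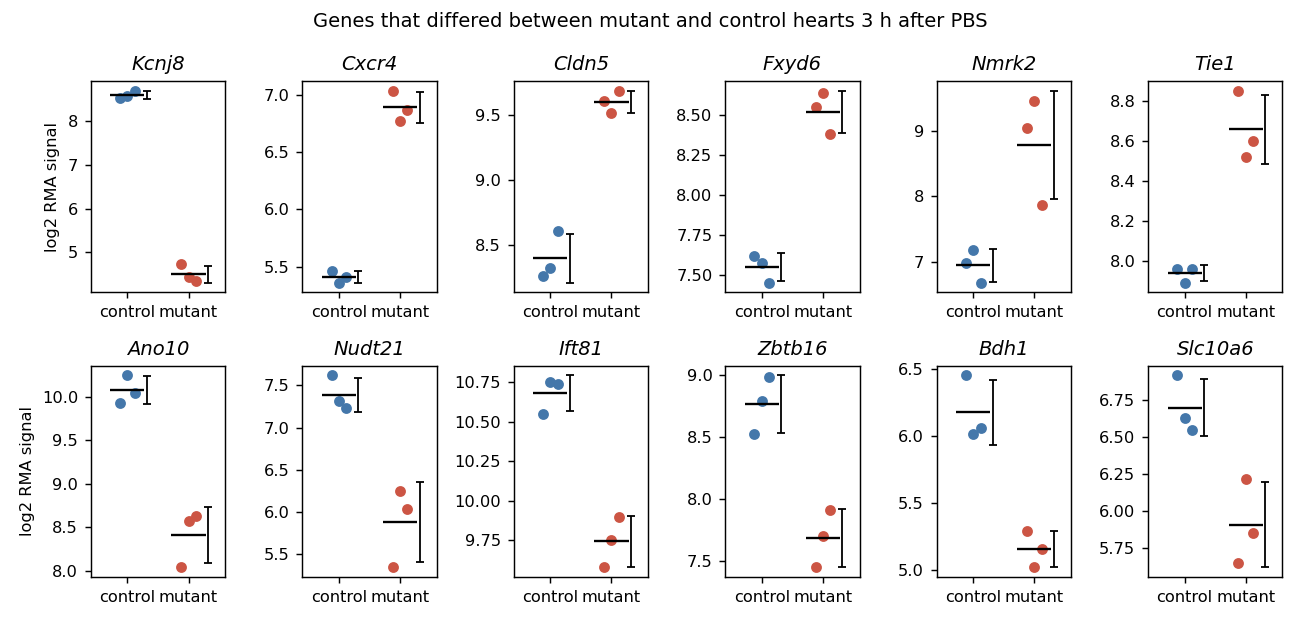
Log2 RMA signal of 12 genes on the 3 control (blue) and 3 mutant (red) arrays after PBS, each panel with its own vertical axis. Black lines mark group means and bars 1 SD. Kcnj8 falls from about 8.60 to 4.50, and in every panel the 2 groups lie apart.

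Several endothelial genes were among the transcripts higher in mutants. Cldn5, the tight junction claudin of endothelium, read 8.26, 8.32 and 8.61 in controls and 9.61, 9.52 and 9.69 in mutants. The highest control lay well below the lowest mutant, and the difference was 1.21 (SE 0.10, 2.31-fold, adjusted p = 0.00223 in limma). Cxcr4, the receptor of the chemokine Cxcl12 and a gene of sprouting endothelium and leukocytes, read 5.46, 5.36 and 5.41 against 7.04, 6.77 and 6.87, a 2.80-fold difference (adjusted p = 0.000212 in limma). Tie1, an endothelial receptor tyrosine kinase, read 7.96, 7.89 and 7.96 against 8.85, 8.52 and 8.60 (difference 0.72, SE 0.10). Esam, an endothelial adhesion molecule, was the third of 13 measured endothelial markers past the threshold, at 0.42. No marker was lower, and 9 of 13 had mutants above all controls. The median of the 13 was 0.26, against 0.01 over all genes. Kdr (0.26), Pecam1 (0.24) and Cdh5 (0.61) did not pass, and Flt1, a VEGF receptor, was at -0.01. Averaged over the list, each mutant array stood at 0.38 or 0.39 above the control mean, with controls from -0.06 to 0.07.

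Other genes known from endothelium were past the threshold too, and these were chosen after their values were seen. The apelin receptor Aplnr differed by 0.89 and 0.85 on its 2 called probe sets, and its ligand Apln by 0.49. Icam2, an adhesion molecule of resting endothelium, read 8.81, 8.95 and 9.03 against 9.82, 9.60 and 9.65 (difference 0.76). Erg, a transcription factor of endothelial identity, was at 0.59. Dll4, a Notch ligand of tip and arterial cells, was at 0.47, and Nrarp, a Notch target, at 0.71. Vegfc, a lymphangiogenic growth factor, was at 0.64 and 0.74 on 2 probe sets. Gpihbp1, which carries lipoprotein lipase across capillaries, was at 0.48, Cd34 at 0.45 and the caveolar protein Cav1 at 0.45. The integrin subunit Itga6 (0.72 and 0.73), the sphingosine 1-phosphate receptor S1pr3 (0.74 and 0.55) and Cd93 (0.69 and 0.61) each passed on 2 probe sets. Tfpi, the tissue factor inhibitor made by endothelium, went the other way, at -0.66 on the called probe set and -0.30 to -0.63 on 3 that did not pass.

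The inflamed-endothelium adhesion genes did not move with these. Of 10 measured genes of endothelial activation, Icam2 and Esam passed, both higher, while Vcam1 (-0.25), Icam1 (-0.20), Sele (-0.01) and Selp (0.06) did not. The list's median was 0.02.

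Receptors and enzymes that set vessel tone were in part higher. Of 18 vasoactive genes measured, 4 were higher and none lower, with a list median of 0.08. Nos3, endothelial nitric oxide synthase, read 8.01, 8.07 and 8.25 in controls and 8.61, 8.54 and 8.57 in mutants (difference 0.47, SE 0.09). Gucy1b1, a subunit of soluble guanylate cyclase that senses nitric oxide, read 7.06, 6.96 and 7.19 against 7.61, 7.71 and 7.63 (difference 0.58), and its partner Gucy1a1 was at 0.52 without passing. The endothelin receptor Ednrb read 7.55, 7.25 and 7.55 against 8.11, 8.04 and 8.0 (difference 0.60), and Ramp2, a partner of the adrenomedullin receptor, differed by 0.46. In all 4 genes every mutant exceeded every control, as the groups lay apart in every called probe set. The ligands Edn1 (-0.09) and Adm (-0.05) and the angiotensin genes Agt (-0.24), Ace (-0.04) and Agtr1a (-0.15) did not pass.

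Kir6.1 is best known from smooth muscle and pericytes, and of 17 markers of these cells 4 were higher and none lower. Higd1b, a marker of cardiac pericytes, read 7.55, 7.70 and 7.60 against 8.56, 8.14 and 8.36 (difference 0.74, SE 0.11, adjusted p = 0.023 in limma). Pdgfrb, the receptor that recruits pericytes, read 9.25, 8.98 and 9.18 against 9.99, 9.76 and 9.57 (difference 0.64). Mcam was at 0.60 and the pericyte protein Vtn at 0.46. The contractile genes Acta2 (-0.47), Tagln (-0.11), Myh11 (-0.04), Lmod1 (-0.03) and Cnn1 (0.06) did not pass, nor did Rgs5 (0.23) and Cspg4 (0.16). The list's median was 0.11, and its mean lay 0.22, 0.22 and 0.11 above controls on the mutant arrays. Ppp1r14a, an inhibitor of myosin phosphatase in smooth muscle, was not in the list and differed by 0.90 (adjusted p = 0.0392 in limma).

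Some basement membrane and interstitial collagens were higher too. Of 27 matrix and remodelling genes, 3 were higher and none lower, and 13 had mutants above all controls with none the other way. Col4a1, the main chain of the vascular basement membrane, read 11.37, 11.11 and 11.16 against 11.75, 11.73 and 11.76 (difference 0.53). Col4a2, its partner chain, was at 0.40, and Col3a1, a fibrillar collagen, at 0.62. Col5a1 (0.49, adjusted p = 0.051 in limma) and Sparc (0.49, adjusted p = 0.054) lay just short, and the list's median was 0.30. Fibroblast markers had a median of 0.20 with Col3a1 alone past the threshold of 13 measured. Postn (0.39), Fn1 (0.33), Tgfb1 (0.16) and Ccn2 (-0.25), genes of scar formation, did not pass.

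These vascular and matrix calls depended on the array set. With all 18 arrays, no member of the endothelial, vasoactive, pericyte or matrix lists passed. Without any 1 array, 1 or 2 endothelial, 0 or 1 smooth muscle and pericyte, and 0 or 1 matrix members passed, and none of the vasoactive ones. The medians of 3 of these lists stayed above 0 throughout. They lay between 0.19 and 0.36 for endothelium, 0.06 and 0.19 for smooth muscle and pericytes, and 0.21 and 0.36 for matrix. The range of the vasoactive median, 0.08 in the fit of 6 arrays, is not given here. Fits that reuse the same group means give the same median by construction.

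**Figure D2:**
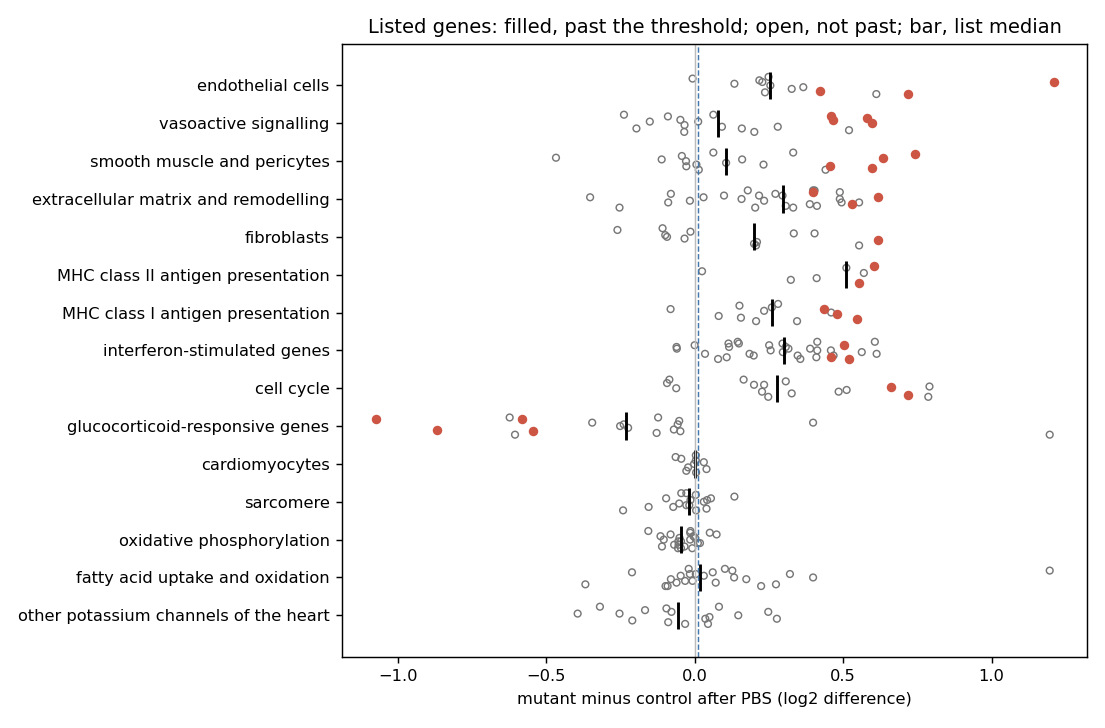
Each circle is 1 measured gene of the list named on the left, placed at its mutant minus control log2 difference after PBS. Filled red circles passed an adjusted p of 0.05, open ones did not, black bars are list medians and the dashed line is the median of all genes, 0.01. Medians of the endothelial, matrix, interferon and antigen presentation lists lie right of 0, that of the glucocorticoid list left of it, and those of cardiomyocyte, sarcomere and oxidative phosphorylation lists close to 0.

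Some interferon-stimulated and antigen presentation genes were higher in mutants, a minority of each list. Interferons switch on antiviral effectors and the machinery that shows peptides to T cells. Of 32 interferon-stimulated genes, 3 were higher and none lower, and 17 had mutants above all controls with none below. Bst2, which tethers viruses to the cell surface, read 7.66, 7.83 and 7.81 against 8.34, 8.22 and 8.32 (difference 0.52, SE 0.08). Ifih1, the RNA sensor MDA5, read 6.93, 6.87 and 6.90 against 7.38, 7.29 and 7.41 (difference 0.46), and Xaf1 differed by 0.50. Gbp2 (0.61), Oasl2 (0.61) and Ifit2 (0.56) had larger differences without passing, while Mx1 (0.11), Oas2 (0.08) and Oas3 (-0.06) were near 0. The list's median was 0.30.

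In the class I pathway, 3 of 13 genes were higher: Psmb9, an immunoproteasome subunit (0.55), Tap1, a peptide transporter (0.48), and Tapbp, which loads peptides (0.43). In the class II pathway, 2 of 7 were higher. H2-Aa, a class II chain, read 9.57, 9.64 and 9.93 against 10.31, 10.19 and 10.45 (difference 0.60), and Cd74, the invariant chain, differed by 0.55. The class II median, 0.51, was larger than that of any other list with a call, although Ciita, the regulator of class II genes, was at 0.03. Cxcl9, an interferon-gamma induced chemokine, read 5.76, 6.16 and 5.94 against 6.81, 6.55 and 7.07 (difference 0.86), and Ccl5 differed by 0.48. In this fit they were the only 2 of 22 chemokines past the threshold, and Cxcl10 was at 0.01. None of the interferon and class II members passed without any 1 array, with all 18 arrays or after quantile normalization. The list medians stayed above 0 (0.19 to 0.48 and 0.44 to 0.64), in part by construction, since several fits reuse the same group means. Of the class I genes 0 or 1 passed without 1 array. Of the chemokines 0 to 2 were higher, and 1 was lower without mutant replicate 1. Neither list had a call with all 18 arrays, with the arrays of the same hybridization day or after quantile normalization.

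Markers of blood cells were measured beside these genes. Of 12 T and NK cell markers only Thy1, which fibroblasts and nerve also express, passed (0.70), and none of the 15 macrophage, 12 neutrophil or 8 B cell markers did. The leukocyte antigens Ptprc (0.66), Cd52 (0.90) and Mpeg1 (0.63), the first and last chosen after their values were seen, were past the threshold. Averaged over the macrophage list, mutants stood at 0.07, 0.05 and -0.01 from the control mean. Over the 4 measured erythroid genes, of which 0 were called, mutants stood at 0.476, 0.014 and 0.465, with controls from -0.132 to 0.165. Mutant replicate 1 was highest on the B cell list, at 0.60 against 0.10 and 0.10 for the others, and on the platelet list, at 0.95 against 0.23 and 0.81. Its immunoglobulin kappa probe set 1427455_x_at, which carries several symbols, read 8.65, against 7.35 and 7.23 in the other mutants and 5.92 to 6.12 in controls. Ppbp, a platelet chemokine, read 5.46, 4.91 and 6.23 in controls and 8.62, 6.27 and 8.65 in mutants, a difference of 2.31 that did not pass (adjusted p = 0.0996 in limma). The part of these cells in the antigen presentation result was not tested.

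Of the 3 called interferon-stimulated genes, Bst2 and Ifih1 hold the interferon response element GAAANNGAAA in the promoter and are shown for that reason, and Xaf1 does not. The element is written as the same 4 letters on either side of 2 free bases. It was searched on both strands of 250 bases before and 50 after each RefSeq gene start (GRCm38.p6). Among the interferon-stimulated genes, 15 of 25 with a promoter in the table held it (60%), as did 3.99% of all 27025 genes and 8 of the 164 genes with a promoter among those called higher (4.88%). Capitals mark the match, which in Bst2 consists of 2 overlapping copies. Bst2 lies at chr8:71537423-71537722 and Ifih1 at chr2:62646206-62646505, both on the minus strand.
Bst2: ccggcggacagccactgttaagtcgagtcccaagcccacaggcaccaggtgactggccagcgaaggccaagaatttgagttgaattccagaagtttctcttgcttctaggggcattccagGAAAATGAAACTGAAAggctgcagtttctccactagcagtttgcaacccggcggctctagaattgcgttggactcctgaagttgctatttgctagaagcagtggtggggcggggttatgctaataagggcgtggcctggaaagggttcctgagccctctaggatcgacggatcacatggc
Ifih1: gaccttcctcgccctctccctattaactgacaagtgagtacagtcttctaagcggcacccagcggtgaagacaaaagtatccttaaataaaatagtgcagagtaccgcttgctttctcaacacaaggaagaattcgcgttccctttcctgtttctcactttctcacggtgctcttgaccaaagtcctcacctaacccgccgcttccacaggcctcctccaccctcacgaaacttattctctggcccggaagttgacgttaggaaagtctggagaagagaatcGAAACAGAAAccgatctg
A match is a description of these letters and says nothing of occupancy. The ETS core CCGGAA, searched the same way, was in 15 of the same 164 promoters (9.15%) and in 16.7% of all.

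Cell cycle genes were higher in part. Cdk1, the mitotic kinase, read 5.01, 5.01 and 4.96 against 5.58, 5.61 and 5.94 (difference 0.72, adjusted p = 0.0221 in limma), and Ccna2, cyclin A2, differed by 0.66. They were 2 of 16 measured, with none lower and a median of 0.28. Mki67 and Top2a, both markers of dividing cells, were at 0.79 and did not pass. Control signals of Cdk1 sat near the median signal of the arrays, so these are low signals. Without 1 array 0 to 2 cell cycle genes passed, and none with all 18 arrays.

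Several of the largest differences belonged to genes outside these groups. Nmrk2, a nicotinamide riboside kinase of muscle that makes NAD precursors, read 6.98, 7.18 and 6.68 in controls and 9.04, 9.45 and 7.86 in mutants. Its groups lay apart but the mutants spread widely, and the 3.57-fold difference had an adjusted p of 0.038 in limma. Fxyd6, a regulator of the sodium pump, read 7.62, 7.57 and 7.45 against 8.55, 8.64 and 8.38 (1.97-fold, adjusted p = 0.00435 in limma). Trp53i11, a p53-induced gene, read 7.33, 7.31 and 7.26 against 8.46, 8.19 and 8.39 (2.07-fold). Fscn1, the actin bundler fascin, differed by 1.16, Car7, a cytosolic carbonic anhydrase, by 1.15, and Nts, the neuropeptide neurotensin, by 1.0. Bcl6b, a transcriptional repressor, was at 0.95 and Smad1, which relays BMP signals, at 0.91. Unnamed probe set 1427320_at had the largest difference without a gene symbol, 1.64.

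Lower transcripts past the threshold were fewer and of mixed kind. Ano10, of the anoctamin family of membrane proteins, read 9.93, 10.25 and 10.05 in controls and 8.04, 8.57 and 8.63 in mutants. Controls and mutants lay more than 1 log2 unit apart at the nearest, and the difference was -1.66 (SE 0.15, 3.16-fold lower, adjusted p = 0.00311 in limma). Ift81, which carries tubulin into cilia, read 10.55, 10.75 and 10.74 against 9.58, 9.75 and 9.90, and a second probe set gave nearly the same difference, -0.92 against -0.94. Nudt21, a factor that chooses polyadenylation sites, read 7.62, 7.31 and 7.23 against 5.34, 6.25 and 6.03 (2.85-fold lower), with -1.31 on its other called probe set. Bdh1, the mitochondrial enzyme that interconverts ketone bodies, read 6.45, 6.01 and 6.06 against 5.29, 5.02 and 5.16 (difference -1.02). Myot, a Z-disc protein, and Mybpc2, a fast skeletal myosin binding protein, differed by -0.88 and -0.80.

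Some calls were not shared by other probe sets of the gene. Nudt21 was at -0.06 on its brightest probe set and -0.02 on a further one, neither past the threshold. Bdh1 was at -0.42 on its brighter probe set, which did not pass (adjusted p = 0.302 in limma). Tnnt2, cardiac troponin T, was at -0.88 on 1 probe set with a control mean of 7.92, whereas 2 with control means of 13.61 and 13.15 were at -0.04 and 0.05. Lasp1, an actin-binding protein, was called lower on 1 probe set (-0.54) and higher on another (0.68). Ppara, the receptor that drives fatty acid oxidation, was at -0.61 on the called probe set and at -0.37 and -0.51 on 2 that did not pass. Among the higher genes, Fscn1 was called on the brightest of 4 probe sets, with the others from -0.09 to 0.41. Other probe sets of Gucy1b1 (0.19), Ednrb (0.10), Ccna2 (0.15), Cxcl9 (0.18), Tapbp (0.16) and Tap1 (0.005 to 0.18) did not pass. Among the glucocorticoid-responsive genes described below, further probe sets of Cebpd (-0.32), Fkbp5 (-0.26 and 0.05), Zbtb16 (-0.36) and Fam107a (0.03) did not pass.

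Genes known to respond to glucocorticoids were the one group with lower calls beside the channel itself. Glucocorticoids from the adrenal gland bind a nuclear receptor that binds palindromic DNA elements and switches on genes such as Fkbp5, which feeds back on the receptor. Of 18 measured, 4 were lower and none higher, 7 had mutants below all controls and 1 above, and the median was -0.23. Zbtb16, a zinc finger transcription factor, read 8.52, 8.79 and 8.98 in controls and 7.45, 7.70 and 7.91 in mutants (2.10-fold lower, adjusted p = 0.0153 in limma). Fkbp5 read 7.89, 7.94 and 7.68 against 7.24, 7.28 and 7.24 (difference -0.58, adjusted p = 0.0247 in limma). Cebpd, a transcription factor of acute responses, read 9.20, 9.09 and 8.52 against 8.07, 8.18 and 7.96 (difference -0.87). Fam107a, an actin-associated stress protein, was at -0.89 on its more changed probe set, with 6.11, 6.05 and 6.05 against 5.05, 5.39 and 5.09, and at -0.54 on the brighter one. In these 4 genes no mutant value reached the lowest control, as the groups lay apart in every called probe set.

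Not all glucocorticoid targets followed. Tsc22d3 (-0.05), Per1 (-0.07), Sgk1 (-0.12), Klf9 (-0.13) and Lcn2 (-0.05) did not pass, nor did Ddit4 (-0.62) and Mt2 (-0.60). Angptl4, a lipoprotein lipase inhibitor that fatty acids also induce, was at 1.2 (adjusted p = 0.0823 in limma). The list's mean on the mutant arrays was -0.24, -0.23 and -0.24 from the control mean, with controls at 0.11, -0.06 and -0.05. With 1 array left out, 0 to 2 members were called lower, and none with all 18 arrays.

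**Figure D3:**
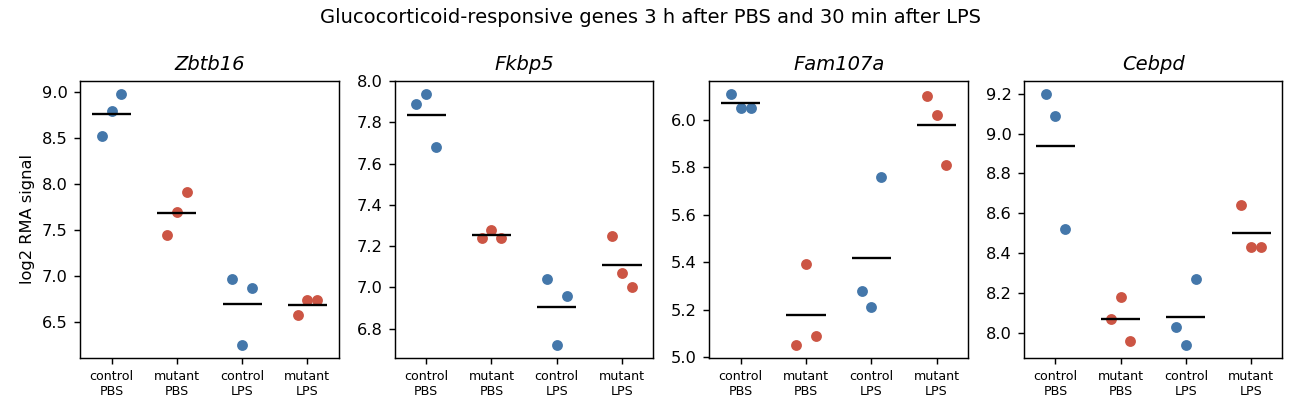
Log2 RMA signal of 4 glucocorticoid-responsive genes on each of 12 arrays, 3 per group, 3 h after PBS and 30 min after LPS, with black lines at group means. After PBS all mutants (red) lie below all controls (blue), while after LPS mutants lie above controls for Fam107a and Cebpd and overlap them for Zbtb16 and Fkbp5.

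The palindrome GNACANNNTGTNC, a form of the glucocorticoid response element, was searched in the same promoter windows. It was in 3 of 15 listed genes with a promoter in the table (20%), Fam107a, Mt1 and Sgk1, and in 0.537% of all. Among genes called lower, 2 of 37 held it (5.41%), Fam107a and Slc10a6, and among genes called higher 1 of 164 (0.61%), Txnip. Slc10a6, a carrier of sulfated steroids, read 6.92, 6.63 and 6.55 in controls and 5.65, 6.22 and 5.85 in mutants (difference -0.80, adjusted p = 0.0433 in limma). Both promoters are shown because these are the lower genes that hold the element, in capitals. They lie at chr14:8309730-8310029 for Fam107a and chr5:103629354-103629653 for Slc10a6, minus strand. Fam107a has 3 starts in the table, not all of which hold the element, and the window of 1 that does is shown.
Fam107a: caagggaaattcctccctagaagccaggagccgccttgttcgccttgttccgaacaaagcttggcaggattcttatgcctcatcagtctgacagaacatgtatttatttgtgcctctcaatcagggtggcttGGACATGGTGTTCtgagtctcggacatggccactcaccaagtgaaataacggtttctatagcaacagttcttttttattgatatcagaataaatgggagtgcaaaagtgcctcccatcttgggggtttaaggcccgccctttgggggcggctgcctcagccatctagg
Slc10a6: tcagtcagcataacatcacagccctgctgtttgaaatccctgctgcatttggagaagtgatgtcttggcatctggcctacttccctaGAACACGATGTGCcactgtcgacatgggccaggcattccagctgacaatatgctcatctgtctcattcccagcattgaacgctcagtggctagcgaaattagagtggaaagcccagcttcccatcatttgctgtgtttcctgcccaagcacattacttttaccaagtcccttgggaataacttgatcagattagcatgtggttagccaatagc

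Represented by its brightest probe set, no listed gene of the contractile and metabolic programs of the heart was called, although Ppara and Tnnt2 had called probe sets that are not their brightest. None of 17 sarcomere, 23 oxidative phosphorylation, 24 fatty acid or 19 glucose genes passed, with medians of -0.02, -0.05, 0.02 and 0.03. The 15 calcium handling genes (median -0.06), 16 other potassium channels (-0.06) and 8 sodium, calcium and pacemaker channels (-0.01) had none past the threshold. Kcnq1, a repolarizing channel, came nearest among potassium channels at -0.32 (adjusted p = 0.13 in limma). Acta1, skeletal actin and a gene of hypertrophy, read 11.71, 11.34 and 10.95 against 12.75, 11.81 and 12.17, a difference of 0.91 that did not pass (adjusted p = 0.119 in limma). No call fell among 24 immediate early genes (median 0.05), 15 hypoxia genes (-0.03), 20 cytokines and receptors (-0.004) or 19 Toll-like receptor and NF-kB genes (0.02). Gjc1, connexin 45 of the conduction system, was the one called of 9 gap junction and disc genes (0.42), and Casp8, the initiator caspase, the one of 13 apoptosis genes (0.51). Krt19 was the one called of 9 epicardium and mesothelium genes (0.73). All 9 differences of that list were above 0, with a median of 0.35. In all, 31 of 48 lists had no call, and their medians ran from -0.18 for atrial genes to 0.49 for platelet genes. The atrial list was uneven between arrays. Its mean lay at -0.88, 0.13 and 0.18 from the control mean on the mutant arrays and at 0.19, 0.19 and -0.38 on the controls. Whether the share of atrial tissue differed was not tested.

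The same genotype contrast on 6 other arrays, taken 30 min after LPS, gave the called genes a reading on arrays that the PBS comparison did not use. There 404 probe sets were higher in mutants (0.897%) and 271 lower (0.602%), and Kcnj8 differed by -3.96. Of the 272 higher after PBS, 262 had the same sign and 81 were also called higher, with a median of 0.58 after PBS and 0.37 after LPS. Of the 55 lower, 36 had the same sign and 6 were called lower, with medians of -0.64 and -0.08. None was called in the opposite direction.

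Cldn5 (0.87), Trp53i11 (0.93), Fxyd6 (0.84), Car7 (0.86), Nts (0.89), Nmrk2 (1.89), Smad1 (0.74) and Cd52 (0.63) were called at 30 min too. Higd1b (0.88), Pdgfrb (0.58), Ednrb (0.65), Icam2 (0.57) and Cxcl9 (0.90) were also called there, as were Ano10 (-1.11) and Ift81 (-0.67) in the lower direction. On another probe set called after PBS, Pdgfrb went from 0.60 to 0.12 at 30 min and Ednrb from 0.52 to 0.21. Cxcr4 (0.80), Fscn1 (0.74) and Nos3 (0.46) were not past the threshold. The list medians were 0.28 for endothelium, 0.28 for smooth muscle and pericytes, 0.37 for matrix, 0.39 for interferon and 0.37 for class II genes. The class I list, at 0.26 after PBS, was at 0.14 with no member called. The glucocorticoid list was at 0.23 there, with 2 members called higher and none lower. Zbtb16 was at -0.01, Fkbp5 at 0.20, Fam107a at 0.56 and Cebpd at 0.42, none past the threshold. The gap between 3' and 5' control probe sets was wider in mutants there as well, 0.29, 0.26 and 0.20 against 0.14 to 0.16, and its part was not tested.

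A test of the difference between both contrasts called 2 probe sets (0.00444% of those tested), Fam107a and Ripor2, and 4263 had an unadjusted p under 0.05. The stations ran partly the other way on the LPS arrays, with all controls on station 2 and mutant replicates 1 and 2 on station 1. A fit of all 12 arrays with condition and station as terms, which includes the PBS arrays again, called 265 of the 327 probe sets in the same direction, 240 of the 272 higher and 25 of the 55 lower. In that fit Cldn5 was at 1.0, Cxcr4 at 1.12, Nmrk2 at 1.85 and Ano10 at -1.32, all past the threshold, and the station term called no probe set. The fit assumes the same genotype difference in both conditions. Its station term therefore rests largely on how the genotype difference changed between PBS and LPS. The fit cannot tell such a change from a station effect, so the lack of station calls does not show that station had no part. Zbtb16 (-0.47), Nudt21 (-0.88), Fkbp5 (-0.13), Cebpd (-0.12) and Fam107a (-0.04) did not pass in it.

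**Figure D4:**
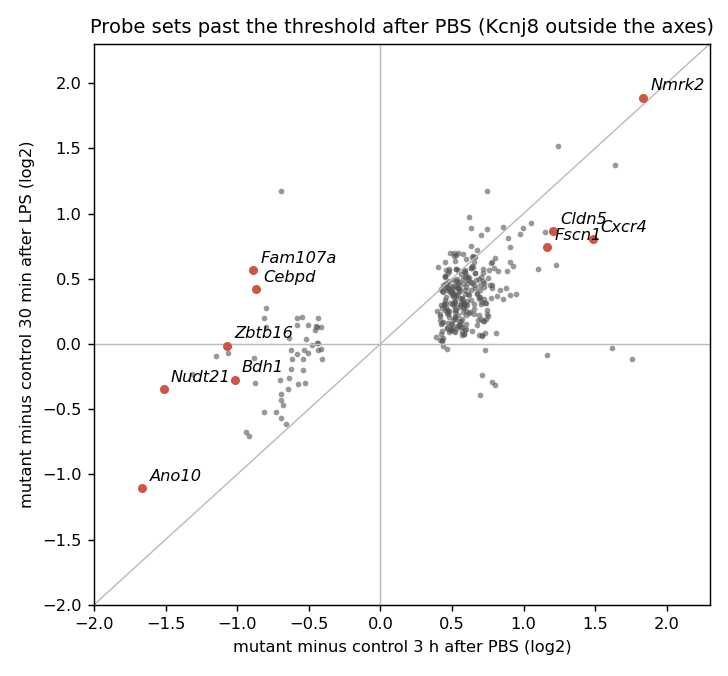
The 326 probe sets past the threshold after PBS other than Kcnj8, by their mutant minus control log2 difference 3 h after PBS (horizontal) and 30 min after LPS (vertical), with the line of equal differences. Most higher probe sets lie right of 0 and above it, with Nmrk2 near the line. Lower ones spread about the horizontal axis, with Ano10 below it and Fam107a and Cebpd above.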

How the data were processed

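The deposited values are log2 signals, 1 per probe set and array, made by the authors with RMA, per the submitters' processing notes (version not given). RMA fits background, quantile normalization and probe effects over a set of arrays, so each value depends on the arrays processed with it. The table holds 45101 probe sets. Without its 64 control features, 34945 of the remaining 45037 carry 1 gene symbol, 932 several and 9160 none. The log2 values were tested as deposited with limma 3.58.1 in R 4.3.3 (lmFit and eBayes, 6 arrays, 4 residual and 6.29 prior degrees of freedom), with Benjamini-Hochberg adjustment over all probe sets and a threshold of 0.05. Precision is limited by the number of arrays, 3 per group. A list takes 1 probe set per gene, the one with the highest mean. Of 700 genes in 48 lists, 618 were measured. The naming rule took the 4 channel subunits, the neighbours of Kcnj8 and up to 12 genes in each direction with the largest called differences. The latter had 1 symbol, groups apart and a signal at or above the median. From each list the rule took up to 4 called members, or else the 2 with the smallest p. Not every gene so picked is named above, and other named members illustrate a list. Members, lists and tests were chosen with earlier results of these data known. No pair of arrays was a duplicate (SD of their difference 0.162 to 0.268). Replicate numbers did not pair the samples, since deviations of same-numbered arrays correlated at 0.03 to 0.05. Alternatives changed the arrays fitted, normalization, signal filter, variance model, array weights, blocks and each array in turn. The script was tested on simulated data. Scanner intensities were not used here.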

Additional observations from a re-analysis of the deposited data

Results flagged for a closer look

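In 2 genes the mutant minus control difference itself differed between the PBS arrays and the LPS 30 min arrays (limma interaction, 12 arrays). For Fam107a the difference after PBS minus that after LPS was -1.45 on the log2 scale (SE 0.19, adjusted p = 0.0305). Its mutants were below all controls after PBS in 3 of 3 arrays (-0.89) and above all controls after LPS in 3 of 3 (0.56). The brighter Fam107a probe set was at -0.54 after PBS and 0.21 after LPS, with overlapping groups after LPS, and its difference of -0.75 did not pass (adjusted p = 0.161). For Ripor2, an inhibitor of RhoA signalling, it was 1.22 (SE 0.15, adjusted p = 0.0305). Ripor2 read 6.06, 5.86 and 6.08 in controls and 6.55, 6.22 and 6.29 in mutants after PBS, and 6.84, 6.89 and 6.66 against 5.98, 5.76 and 6.05 after LPS, with no overlap in either condition. The difference on 3 dimmer Ripor2 probe sets did not pass (adjusted p from 0.389 to 0.683). The conditions also differ in time after injection, hybridization day and the fluidics station of the genotypes, whose part was not tested for these 2 genes.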

How the results depend on the processing

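Against 327 called probe sets after PBS (272 higher, 55 lower), the count was 4 with all 18 arrays (2 and 2), 9 with the arrays of the same hybridization day (4 and 5), 129 after quantile normalization (94 and 35), 631 with dim probe sets left out (514 and 117) and 514 with an intensity trend (435 higher). Array weights gave 91 lower. Adding the LPS 30 min arrays with station as a term gave 1933 (1371 and 562). Lot as a block rests on mutant replicate 3 alone against the controls, so its count is not given. Both were chosen after seeing the data. Leaving out 1 array gave 9 to 116 (6 to 91 higher, 3 to 28 lower). The replicate block gave 431 calls (352 and 79), although replicate numbers did not pair the samples. Kcnj8 ran from -4.25 to -4.02 and passed in every fit. List medians were above 0 in 28 of 48 lists and in 26 to 31 without 1 array. After LPS 30 min, 675 calls became 1303 with dim probe sets left out, 160 with station as a block (chosen after seeing the data) and 22 to 597 without 1 array. The interaction's 2 calls became 8 with dim probe sets left out, 7 in the replicate block and 0 to 9 without 1 array. None of the 56 called probe sets that the naming rule picked changed sign in the PBS fits, most of which could not change it. Apart from the arrays or probe sets a setting removes, the cause of these changes was not tested.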

Other observations

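Sex-linked genes read alike on the 6 PBS arrays, with Xist from 10.94 to 11.20 and Uty from 3.62 to 3.99. On chromosome 6, 13 of 992 measured genes were called after PBS (1.31%), Kcnj8 among them. Over all genes 1.02% were called higher and 0.143% lower, and the share reached 1.97% on chromosome 3. Snhg4, a small nucleolar RNA host gene, was among the 9 probe sets called with the arrays of the same hybridization day (0.82, chosen after its value was seen). Txnip, a regulator of glucose uptake and thioredoxin, read 10.50, 10.55 and 10.63 in controls and 11.57, 11.35 and 10.95 in mutants after PBS (difference 0.73), against -0.04 after LPS. Noct, a circadian deadenylase, was lower by the same test (-0.58), whereas none of 17 clock genes passed.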
